A study of Rattus norvegicus with 3 samples.

Results

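Voltage-gated sodium and calcium channel subunits were described here as 36 genes of 14217 named ones on arrays of rat brainstem, 12 for sodium channels and 24 for calcium channels. A gene belonged if its single symbol in the platform's probe table began with Scn or Cacn. The epithelial sodium channel genes (Scnn) and Scnm1, a splicing factor gene, were set aside. Cacna2d2 and Cacna2d4 were not analysed here. Each gene was read from its brightest probe set, a probe set being the short probes that report on 1 transcript. Of the 36 genes, 19 had a mean log2 signal at or above a floor of 7.44, the median of all probe sets that are not controls, and the other 17 lay below it.

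The series holds 3 arrays, labelled Hand Acu (hand acupuncture), TBI (traumatic brain injury) and Sham, with 1 array for each and all tissue taken 1 h after modelling. Per the design text tissue of 5 rats was mixed; this is taken to mean 1 pool of RNA for each array, and 6 µg of total RNA went into labelling. Strain, sex, age, the kind of injury and the needling site were not used here, and the labels do not say whether the Hand Acu rats were also injured. With 1 pool in each group no difference has a replicate error, no test was run, and fewer cells of a type cannot be told apart from less RNA in each cell. Of the caudal brainstem markers listed, Chat, Slc18a2, Hoxb2 and Hoxa5 were above the floor, while Slc6a5 and Slc6a2, the transporter genes of glycinergic and noradrenergic neurons, were below it. All 4 genes above the floor were higher in TBI than in Sham, with a median of 0.26, and Hoxa5 was furthest apart, at 1.22 for TBI minus Sham and 0.99 for Hand Acu minus Sham. Its levels were 8.34 in Hand Acu, 8.57 in TBI and 7.35 in Sham, and the Sham value lay below the floor of 7.44. The part of such regional differences in the channel values against Sham was not tested. Markers of cerebellum and striatum were also above the floor, as given below beside the genes they bear on.

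Sodium channels open within a fraction of a millisecond of depolarisation and carry the upstroke of the action potential. Each has a large pore-forming alpha subunit and small beta subunits, which tune gating and bind neighbouring proteins. Calcium channels turn depolarisation into calcium entry, which drives transmitter release, gene expression and pacemaking. Their pore subunits fall into high-voltage-activated types (L, P/Q, N and R) and low-voltage-activated T types, and the first kind is carried to the membrane by beta and alpha2delta subunits. The gamma family includes the TARPs, which mainly escort AMPA-type glutamate receptors.

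No channel subunit above the floor was 1.5-fold apart between any pair of arrays. In TBI against Sham this was 0 of 19 genes, where 1.55% of the 9241 genes above the floor were that far apart in either direction. In Hand Acu against TBI it was again 0 of 19, against 1.21% of all genes, and in Hand Acu against Sham 0 of 19, against 1.89%. With so few genes expected at that background, a count of 0 is near it. The median log2 difference of the 19 genes was -0.002 for TBI minus Sham, where all genes above the floor had 0.004. For Hand Acu minus TBI it was -0.02 (all genes -0.002) and for Hand Acu minus Sham 0.03 (all genes 0.004). Directions were mixed, with 9, 9 and 11 of the 19 genes above 0 in the order named, where the share of all genes was 51%, 49.3% and 51%.

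**Figure D1:**
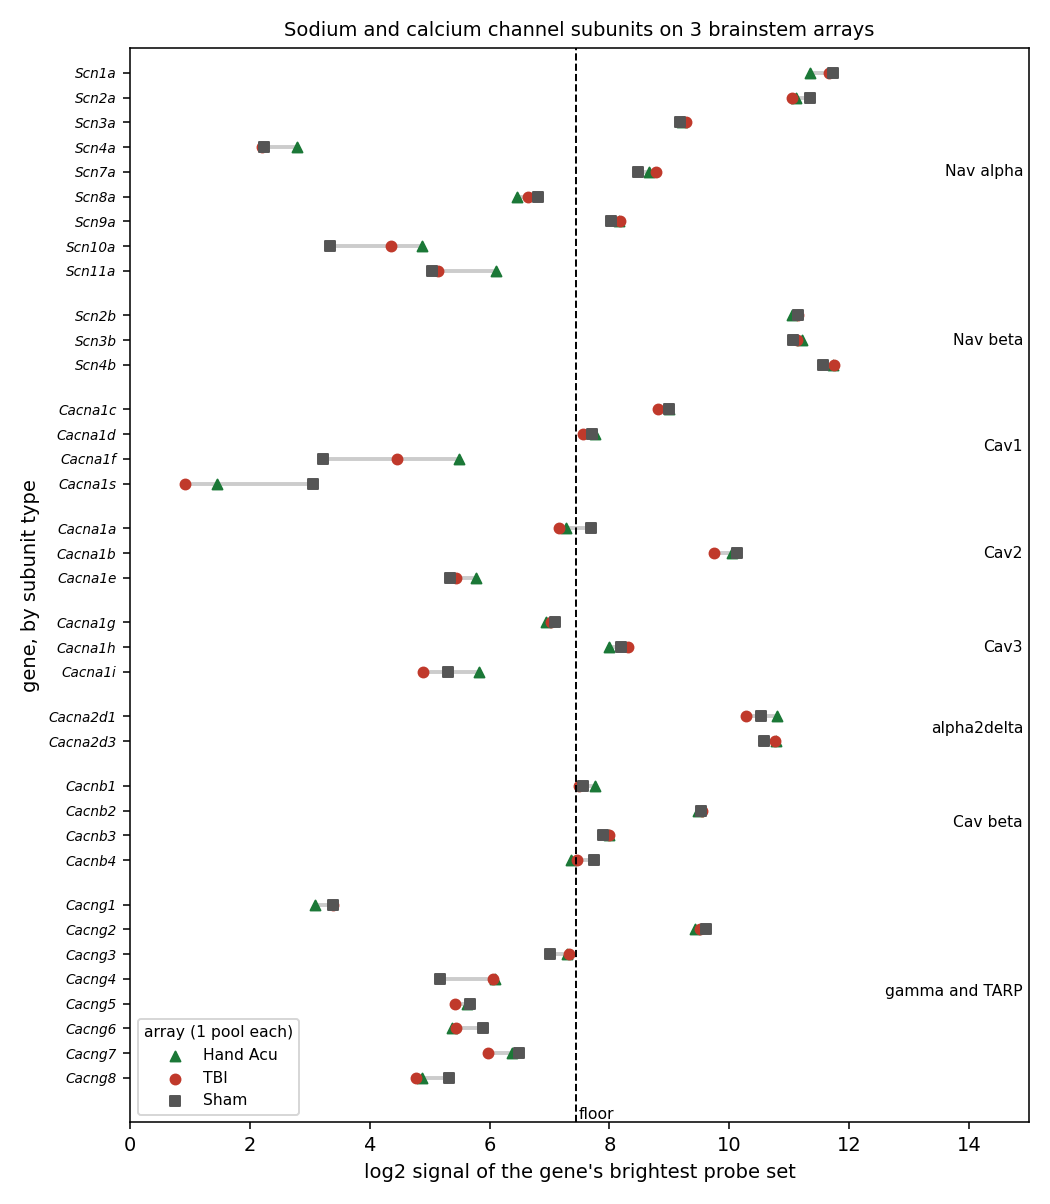
Log2 signal (x axis) of the 36 channel subunit genes (y axis, by subunit type) on the Hand Acu, TBI and Sham arrays, with 1 point for each array and a grey line over their range. The dashed line is the floor at 7.44; above it the 3 arrays lie close together, and no gene above it spans more than 0.51.

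At a lower threshold, with the higher array at least 25% above the lower one, 1 of the 19 genes was apart in TBI against Sham (10.1% of all genes), 2 in Hand Acu against TBI (8.16%) and 2 in Hand Acu against Sham (11%), which is again near the background. The genes were Cacna1b in the first, Scn1a and Cacna2d1 in the second, and Scn1a and Cacnb4 in the third. Cacnb4 was just inside the floor and passed it through its Sham value. As a gauge of how far readings of 1 gene differ, its 2 brightest probe sets above the floor were set against each other in 2073 genes. Their log2 differences lay a median of 0.15 apart for TBI minus Sham, 0.14 for Hand Acu minus TBI and 0.16 for Hand Acu minus Sham. In 95% of genes the gap was at most 0.54, 0.51 and 0.60 in that order, so smaller differences lie within the range that 2 probe sets of 1 gene gave. Both probe sets read the same pool on the same array, so this gap holds no variation between pools or rats and does not stand in for replicates.

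**Figure D2:**
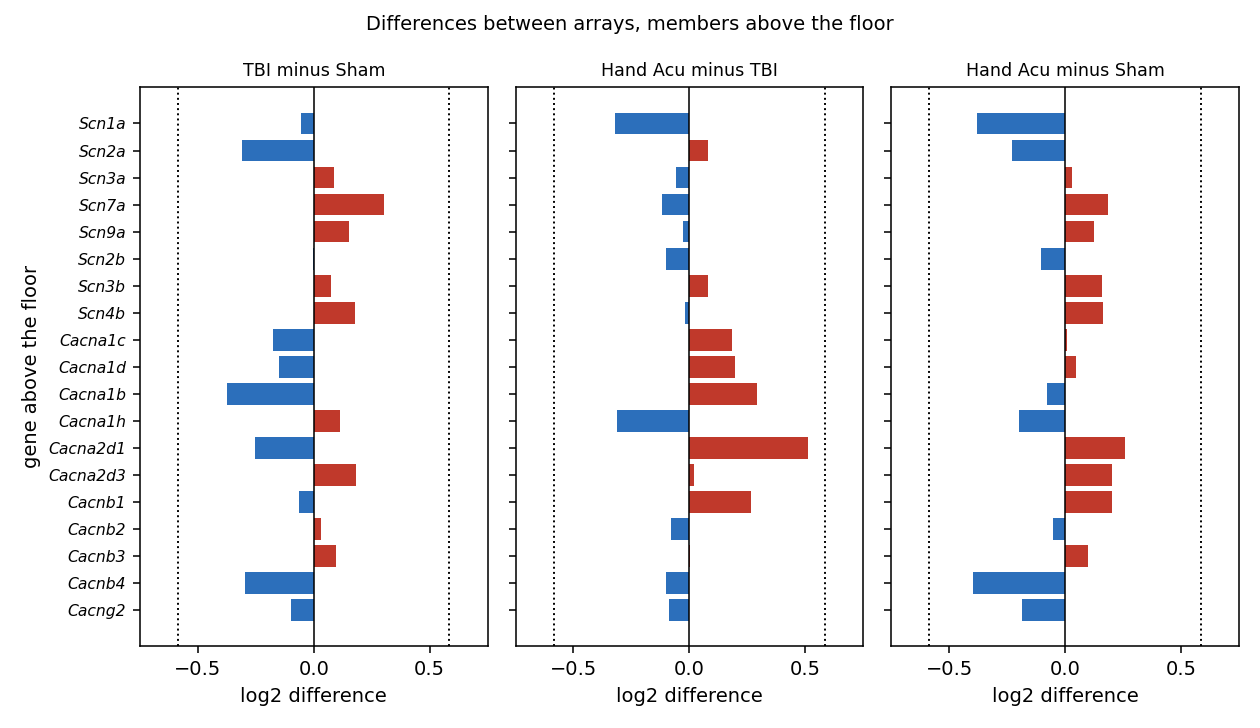
Log2 difference (x axis) of the 19 channel subunit genes above the floor for TBI minus Sham, Hand Acu minus TBI and Hand Acu minus Sham, red where above 0 and blue where below. Dotted lines mark 1.5-fold; no bar reaches them, and the longest is Cacna2d1 at 0.51 in Hand Acu minus TBI.

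Of the sodium channel pore subunits, Scn1a, Scn2a, Scn3a, Scn7a and Scn9a were above the floor, and Scn4a, Scn8a, Scn10a and Scn11a were below it. The 5 genes above the floor are the ones that lie together on a single chromosome in the RefSeq gene order. There Scn3a is next to Scn2a, 4 protein-coding genes separate Scn2a from Scn1a, and Scn1a, Scn9a and Scn7a follow one another directly. None of the 4 genes below the floor is in that cluster.

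Scn1a, the sodium channel of fast-spiking inhibitory neurons, had a log2 signal of 11.35 in Hand Acu, 11.67 in TBI and 11.73 in Sham. The Hand Acu array was the low one, by -0.32 from TBI and -0.38 from Sham, while TBI minus Sham was -0.06. Of the 5255 genes with a mean signal of at least 9.25, 94 were as low as Scn1a for Hand Acu minus TBI, which is 1.79%. Scn2a, a channel of excitatory neurons and unmyelinated axons, had 11.12 in Hand Acu, 11.04 in TBI and 11.35 in Sham. Here Sham was the high array, so that TBI minus Sham was -0.31 and Hand Acu minus Sham -0.23. Both genes have 1 probe set, and the direction of both was the same under quantile normalization, median centring and an offset of 50, the 3 alternatives that can move such a gene.

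Scn3a, a subunit best known from the developing brain, varied least among the pore subunits of sodium channels, with 9.21 in Hand Acu, 9.27 in TBI and 9.18 in Sham. Scn7a encodes an atypical channel that senses sodium in glia and sensory neurons rather than carrying spikes. It had 8.66, 8.78 and 8.48 on the Hand Acu, TBI and Sham arrays, and its TBI minus Sham of 0.30 was the highest of the 19 genes. Scn9a, a threshold channel of pain-sensing and autonomic neurons, had 8.15, 8.18 and 8.03 on the same arrays, and TBI minus Sham was 0.15. Of the sensory neuron markers, Prph and Calca were above the floor and also higher on the TBI array than on the Sham array, by 0.20 and 0.53. Trpv1 was below the floor. All 6 astrocyte markers were above the floor, with 3 higher and 3 lower in TBI than in Sham and a median of 0.03; Gfap, the astrocyte filament gene, was 0.30 higher. Their summed linear signal was 40857 in Hand Acu, 43451 in TBI and 40087 in Sham. The part of sensory fibres or glia in the Scn7a and Scn9a values was not tested.

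Below the floor, Scn8a, the main channel of mature nodes of Ranvier, had 6.45 in Hand Acu, 6.63 in TBI and 6.81 in Sham. A value below the floor says that this probe set was dim and not that the gene was off. Scn10a and Scn11a, the tetrodotoxin-resistant channels of pain-sensing neurons, had 4.86 and 6.11 in Hand Acu, 4.35 and 5.13 in TBI, and 3.34 and 5.04 in Sham. Scn4a, the skeletal muscle channel, lay between 2.19 and 2.79. Differences at these signals are erratic: the SD of TBI minus Sham over all genes was 1.04 below the floor, against 0.25 from the floor up to 9.25 and 0.16 above that.

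All 3 sodium channel beta subunits measured were above the floor. Scn4b, whose tail blocks the open pore and supports resurgent current, had 11.73 in Hand Acu, 11.75 in TBI and 11.57 in Sham. It was thus lowest on the Sham array, with TBI minus Sham at 0.18 and Hand Acu minus Sham at 0.16. Scn4b is strongly expressed in the striatum. Of the forebrain and striatum markers, 5 of the 7 with a value were above the floor, 4 of those 5 were higher in TBI than in Sham (median 0.34), and their summed linear signal was 3166 in Hand Acu, 3112 in TBI and 2400 in Sham. Emx1 and Tbr1 were below the floor, and the part of such tissue in the Scn4b values was not tested.

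Scn2b, which links to the alpha subunit by a disulphide bond, had 11.04 in Hand Acu, 11.14 in TBI and 11.14 in Sham. Its second probe set, at a lower signal, had 7.41, 7.70 and 7.81 on those arrays and was likewise lowest on the Hand Acu array. Scn3b, a beta subunit that binds without a disulphide bond, had 11.21, 11.13 and 11.06 on the Hand Acu, TBI and Sham arrays. The second probe set of Scn3b had 10.01, 10.35 and 9.77 and so gave 0.57 for TBI minus Sham, against 0.08 for the brighter one. For Hand Acu minus TBI the probe sets of Scn3b had opposite signs, at -0.34 for the second and 0.08 for the brighter one. The gene thus has no settled direction between Hand Acu and TBI. Scn2b and Scn4b are direct neighbours in the gene order, with TBI minus Sham of -0.002 and 0.18.

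**Figure D3:**
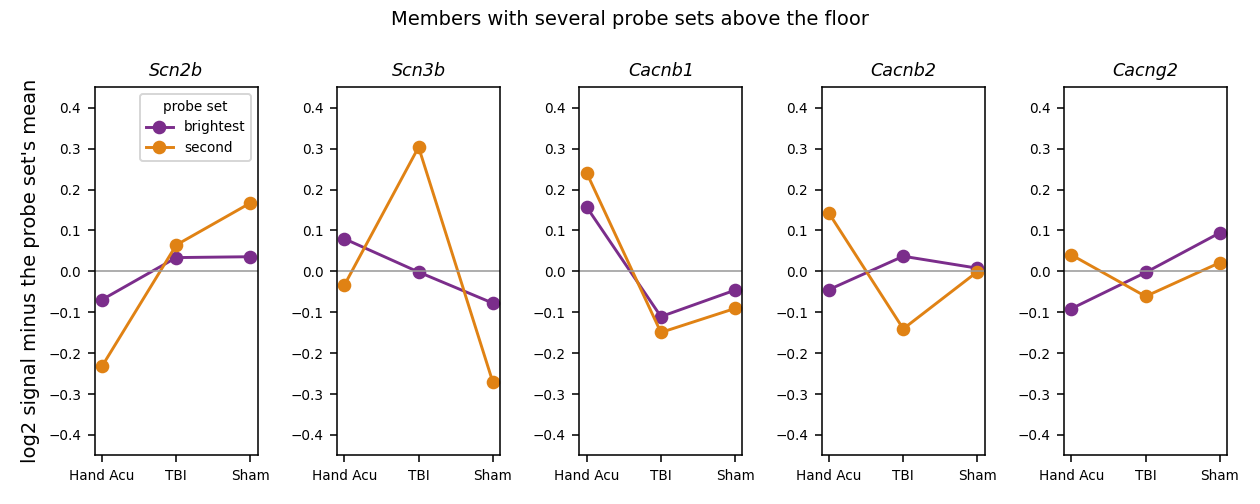
Log2 signal minus the probe set's own mean over the arrays (y axis) on the Hand Acu, TBI and Sham arrays for the 5 channel subunit genes with 2 probe sets above the floor. Both lines of Cacnb1 are highest on Hand Acu, and both lines of Scn2b are lowest there. Those of Scn3b, Cacnb2 and Cacng2 differ in which array is highest. Each line is centred on its own mean, so that lines of a gene cross is not a result.

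Among calcium channel pore subunits, Cacna1b, Cacna1c, Cacna1d and Cacna1h were above the floor. The first 3 are high-voltage-activated, and on the brightest probe set all 3 were lowest on the TBI array. Cacna1b, the N-type channel of presynaptic terminals, had 10.04 in Hand Acu, 9.75 in TBI and 10.12 in Sham. Its TBI minus Sham of -0.37 was the lowest of the 19 genes, and Hand Acu minus TBI was 0.29. Of the 5255 genes of like signal, 90 were as low for TBI minus Sham (1.71%). Its second probe set, which averaged 6.09 and lay below the floor, went the opposite way, and with the mean of both probe sets the values turned to 0.06 and -0.15.

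Cacna1c, an L-type channel that couples activity to gene expression, had 8.996 in Hand Acu, 8.81 in TBI and 8.99 in Sham. Cacna1d, the L-type channel of pacemaking neurons, had 7.75, 7.55 and 7.70 on those arrays. In both, TBI was below the other arrays by between 0.15 and 0.20, and Hand Acu and Sham lay within 0.05 of each other. A second, dim probe set of Cacna1c, with 4.86, 5.47 and 4.89 in Hand Acu, TBI and Sham, had TBI as the highest array. Differences of 0.15 to 0.20 are close to the median gap between 2 probe sets of 1 gene. The same TBI array enters TBI minus Sham and Hand Acu minus TBI, so a low value on it gives opposite signs in both by construction.

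Cacna2d1 was the subunit furthest apart. It encodes an alpha2delta protein that brings channels to the presynaptic membrane and is the binding site of gabapentin. It had 10.79 in Hand Acu, 10.28 in TBI and 10.53 in Sham. Hand Acu minus TBI was 0.51, or 1.43-fold, and 14 of the 5255 genes of like signal were as high (0.266%). This share, like those of Scn1a and Cacna1b above, is that of a gene at an extreme of the 19 genes in a comparison. A small share partly follows from that choice and is not a p-value. For Cacna2d1, TBI minus Sham was -0.25 and Hand Acu minus Sham 0.26, so the Sham array lay between the others. The Hand Acu minus TBI difference rests on 1 probe set, and was 0.50 to 0.52 under the 3 alternatives that can move such a gene (quantile normalization, median centring and an offset of 50). The summed linear signal of the skeletal muscle markers, given below beside Cacnb1 and mostly Myh1, had the same order of arrays. Acta1 and Pvalb, the other genes of that list above the floor, were highest in Sham, so the order of the sum is that of Myh1. The part of muscle tissue in the Cacna2d1 values was not tested. Cacna2d3, a second alpha2delta gene, differed little between Hand Acu (10.78) and TBI (10.76) and was lower on the Sham array (10.57).

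Promoter sequence from RefSeq (build GRCr8) was found for 26 of the 36 genes, as 29 windows of 300 bases that run from 250 before to 50 after a transcript start. Those of Cacna1b and of Cacna2d1 (1 of its 3 windows) are shown, as the genes with the lowest TBI minus Sham and the highest Hand Acu minus TBI. The Cacna2d1 window was chosen because it holds the core marked below, and the other 2 windows of that gene lack it. Capitals mark the core TGACG, on either strand, which CREB-type factors of activity-dependent transcription recognise; the window of Cacna1b is chr3:27944236-27944535 and that of Cacna2d1 is chr4:20330098-20330397, both on the minus strand.
Cacna1b: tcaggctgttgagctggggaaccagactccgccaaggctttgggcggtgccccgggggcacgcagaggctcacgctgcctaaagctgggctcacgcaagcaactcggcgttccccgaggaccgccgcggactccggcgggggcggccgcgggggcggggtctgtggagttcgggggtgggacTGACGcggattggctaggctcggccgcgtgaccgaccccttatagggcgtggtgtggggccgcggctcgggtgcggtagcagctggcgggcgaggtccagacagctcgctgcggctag
Cacna2d1: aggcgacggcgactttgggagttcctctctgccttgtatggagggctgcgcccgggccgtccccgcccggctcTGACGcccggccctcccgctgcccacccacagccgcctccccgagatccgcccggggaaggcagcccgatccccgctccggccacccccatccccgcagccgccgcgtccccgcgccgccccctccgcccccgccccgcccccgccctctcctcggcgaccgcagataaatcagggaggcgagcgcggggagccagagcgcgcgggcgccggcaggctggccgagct
Both windows are rich in CpG, with 34 and 41 CpG dinucleotides, where the median of all 33469 promoter windows was 7 and that of the 29 channel windows was 11. TGACG was in 5 of the 29 channel windows (17.2%) and in 21.2% of all windows. The full palindrome TGACGTCA, which contains that core, and the AP-1 sites TGACTCA or TGAGTCA were in 0 of the 29 windows, against 1.83% and 4.63% of all windows. The SP1 box GGGCGG was in 15 of 29 windows (51.7%), against 33.1% of all, and TATAAA in 2 of 29 (6.9%), against 14.2%. All motifs were searched on both strands. A match is a run of letters and not a site of binding, and no expression value was tested against it.

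Calcium channel beta subunits bind the pore subunit inside the cell and set its gating and surface level; all 4 genes were above the floor. Cacnb1, best known as the skeletal muscle subunit and also made in brain, had 7.76 in Hand Acu, 7.49 in TBI and 7.56 in Sham. Its second probe set gave 7.78, 7.39 and 7.45, so both put Hand Acu highest and TBI lowest, with Hand Acu minus TBI at 0.27 and 0.39. The second probe set had a mean of 7.54, close to the floor of 7.44, and its TBI value lay below the floor. It passed the floor through its Hand Acu value, so its having Hand Acu highest partly follows from the floor. Of 7 genes with a value in the list of skeletal muscle markers 3 were above the floor, and Ckm, Myh2, Myh4 and Tnnt3 were below it. The summed linear signal of the 3 genes had the same order, at 14721 in Hand Acu, 10536 in TBI and 12155 in Sham. Most of it was Myh1, a fast muscle myosin gene, at 13.50, 12.83 and 13.02 in Hand Acu, TBI and Sham, so that Hand Acu minus TBI was 0.67, past 1.5-fold. Acta1 and Pvalb did not have this order and were highest in Sham. The part of muscle tissue in the Cacnb1 values was not tested. Of the 5 genes with 2 probe sets above the floor, Cacnb1 and Scn2b were the ones whose probe sets shared both the highest and the lowest array.

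Cacnb4, the main beta subunit of the cerebellum, had 7.35 in Hand Acu, 7.45 in TBI and 7.75 in Sham. It was the lowest of the 19 genes for Hand Acu minus Sham, at -0.40, and its TBI minus Sham was -0.30. It is also the gene just inside the floor of 7.44, with a mean of 7.52, and its Hand Acu value lay below the floor. Cacnb4 passed the floor through its Sham value, so its low differences against Sham and its rank partly follow from the floor. Cacnb2 (9.47, 9.55 and 9.52 on the Hand Acu, TBI and Sham arrays) and Cacnb3 (7.99, 7.99 and 7.89) stayed within 0.10 over the arrays. The second probe set of Cacnb2 went the opposite way in each comparison, with Hand Acu minus TBI at 0.28.

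Cacna1a, the P/Q-type channel that drives release at most central synapses and is abundant in Purkinje cells, fell just outside the floor with a mean of 7.38. Its brightest probe set had 7.27 in Hand Acu, 7.16 in TBI and 7.70 in Sham. Of its 5 probe sets, all below the floor, 3 were lower in TBI than in Sham, at -0.54, -0.50 and -0.80, and the others were higher, at 0.07 and 0.54. Cacng2, the TARP stargazin, had 9.43, 9.52 and 9.61 on the Hand Acu, TBI and Sham arrays. Its second probe set gave 8.65, 8.55 and 8.63, so both probe sets were lower in TBI than in Sham, by -0.10 and -0.08. Their signs differed for Hand Acu minus TBI (-0.09 and 0.10) and for Hand Acu minus Sham (-0.19 and 0.02).

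Cacna1a, Cacnb4, Cacng2 and Cacna1g are all abundant in cerebellum, and on the brightest probe set TBI minus Sham was -0.54, -0.30, -0.10 and -0.08 in that order, with Cacna1a and Cacna1g below the floor. Cacnb4 passed the floor through its Sham value. These genes were set together after their values were seen, and they are not all the members made in cerebellum. Scn1a and Scn4b, left out of the set, had -0.06 and 0.18, so the set gives no direction for such members. Markers of Purkinje and granule cells were lower in TBI than in Sham. Of 15 listed, 14 had a value and 12 were above the floor; all 12 had less signal in TBI than in Sham, by -0.07 to -0.76, with a median of -0.55. Their summed linear signal was 23701 in Hand Acu, 24092 in TBI and 32703 in Sham, and Zic1 and Barhl2 were below the floor. The part of cerebellar tissue in these channel values was not tested. The 10 general neuron markers, all above the floor, had medians of 0.05 for TBI minus Sham, -0.01 for Hand Acu minus TBI and 0.06 for Hand Acu minus Sham.

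The T-type subunit Cacna1h, which opens near rest and supports burst firing, had 7.99 in Hand Acu, 8.31 in TBI and 8.19 in Sham. Hand Acu was the low array, with Hand Acu minus TBI at -0.31, the lowest of the 19 genes after Scn1a. Its second probe set, below the floor, went the opposite way, with 6.07 in Hand Acu, 2.75 in TBI and 2.85 in Sham. The other T-type genes were below the floor. Cacna1g, abundant in thalamus, inferior olive and cerebellum, had log2 signals of 6.95, 7.02 and 7.10 on the Hand Acu, TBI and Sham arrays, and the brightest probe set of Cacna1i had 5.82, 4.89 and 5.30.

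The remaining subunits were dim. Cacna1e, the R-type channel, had 5.77 in Hand Acu, 5.44 in TBI and 5.34 in Sham. Of the gamma family, Cacng1 and Cacng3 to Cacng8 were below the floor, among them Cacng3, a forebrain TARP, with 7.29, 7.32 and 7.01. Genes of muscle and retina channels lay well below the floor: Cacna1s, the skeletal muscle voltage sensor, had 1.45, 0.92 and 3.05 on the Hand Acu, TBI and Sham arrays, Cacng1, its muscle partner, 3.08, 3.38 and 3.38, and Cacna1f, the photoreceptor channel, 5.48, 4.45 and 3.22. Of the genes listed as skeletal muscle markers, Ckm, Myh2, Myh4 and Tnnt3 were below the floor too. Myh1, Acta1 and Pvalb were above it, with Hand Acu minus TBI at 0.67, 0.20 and -0.09. Without a floor, 3 of the 36 genes would have been 1.5-fold higher and 1 lower in TBI than in Sham, all below the floor. The share of all 14217 genes at that setting was not computed, so the count has no background beside it. Over the 4976 genes below the floor the SD of TBI minus Sham was 1.04, where 1.5-fold is 0.58.

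**Figure D4:**
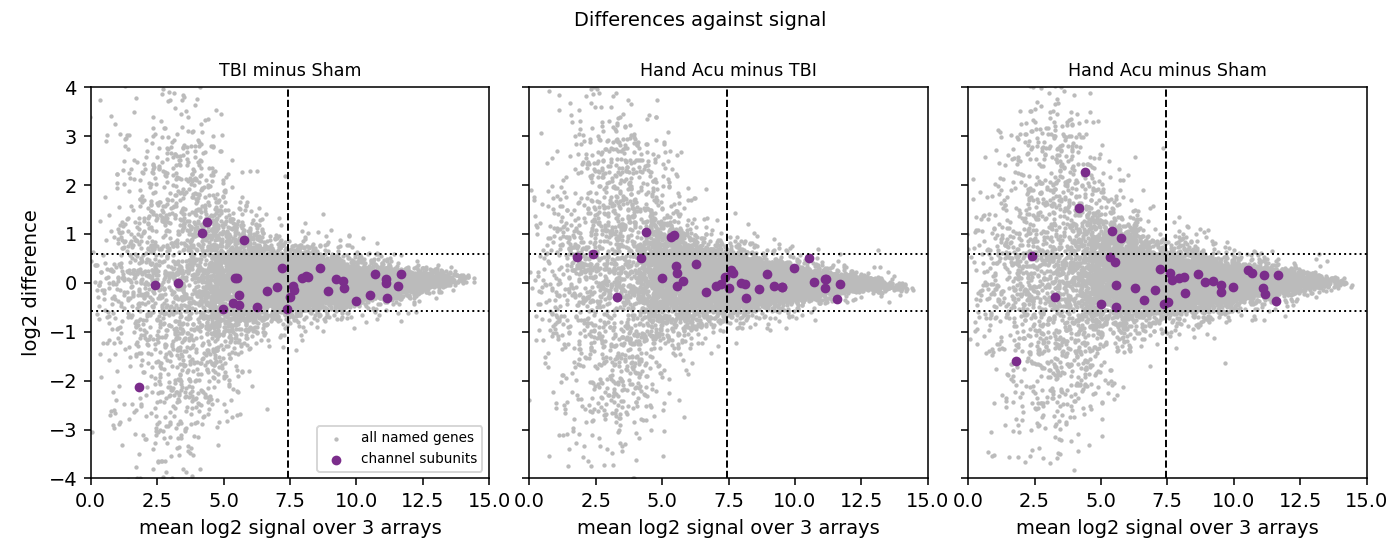
Log2 difference (y axis) against mean log2 signal over the 3 arrays (x axis) for all 14217 named genes (grey) and the 36 channel subunit genes (purple) in the 3 comparisons. The dashed line is the floor, dotted lines mark 1.5-fold, and the y axis stops at 4 in both directions; channel subunits beyond 1.5-fold all lie left of the floor, where grey points scatter widely.

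By array, calcium channel genes above the floor had TBI as the lowest array in 5 of 11 (Cacna1b, Cacna1c, Cacna1d, Cacna2d1 and Cacnb1), and sodium channel genes in 1 of 8 (Scn2a). Over all genes above the floor TBI was the lowest array in 31.7%. For the 19 genes together it was 31.6%. Sham was the lowest array in 5 of the 8 sodium channel genes (Scn3a, Scn7a, Scn9a, Scn3b and Scn4b) and in 2 of the 11 calcium channel genes (Cacna2d3 and Cacnb3), where all genes had 36.3%. These are counts of few genes on single arrays, and whether both families differ was not tested.

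Proteins that anchor or regulate the channels were read from 3 lists. None of their members above the floor was 1.5-fold apart in any comparison. Of all genes above the floor 1.55%, 1.21% and 1.89% were, for TBI against Sham, Hand Acu against TBI and Hand Acu against Sham. With so few partner genes a count of 0 is near that background. Of 14 sodium channel partners 13 were above the floor, with medians of 0.07 for TBI minus Sham, 0.08 for Hand Acu minus TBI and 0.03 for Hand Acu minus Sham. Fgf14, an intracellular factor that binds the tail of sodium channels, had 8.05 in Hand Acu, 7.72 in TBI and 8.06 in Sham. Nedd4l, a ubiquitin ligase that removes sodium channels from the membrane, was 0.39 higher in Hand Acu than in Sham. Ank3, which gathers sodium channels at the axon initial segment, had -0.17 for TBI minus Sham and 0.08 for Hand Acu minus TBI.

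Of 18 calcium channel partners 15 had a value and 9 were above the floor. TBI was below Sham in 6 of the 9, with a median of -0.03. Over all genes above the floor 51% had TBI above Sham and the median was 0.004, so the 6 of 9 are few genes near an even split. Rims1, Rims2 and Bsn, which hold calcium channels at the release site, had -0.35, -0.24 and -0.29 for TBI minus Sham, and 0.10, 0.08 and 0.04 for Hand Acu minus TBI. They had the lowest TBI minus Sham of the 9, and the other release-site genes of the list, Rimbp2 and Erc1, had -0.02 and -0.03. Rem2, a small GTPase that inhibits calcium channels, was 0.33 higher in Hand Acu than in TBI. The sodium leak channel genes Nalcn, Unc79, Unc80 and Nalf1 were all above the floor and stayed within 0.11 in each comparison.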

How the data were processed

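Brainstem RNA of the Hand Acu, TBI and Sham groups was measured on 1 array each. The deposited values are log2 signals; MAS5, which subtracts mismatch from match probes, is named per the submitters' processing notes with no version. Taken back to linear scale, the 2% trimmed mean equalled 500.0 on all arrays, so the log base and scaling were read from the values. Median signals were 174.2 (Hand Acu), 174.1 (TBI) and 174.7 (Sham); the number of arrays limits the precision. Of 31099 probe sets 57 were controls. Names came from the platform annotation of 2016, and all 36 members matched RefSeq by identifier with 0 symbols changed. The brightest probe set with 1 symbol stood for a gene. All members are accounted for; the 5 highest and lowest differences of each comparison, and all above 1.5-fold, were to be named. The members and lists were chosen with earlier results of these data known. Alternatives were quantile normalization, median centring, no floor, a floor of 9.25, an offset of 50, averaging a gene's probe sets, and thresholds of 25% and 2-fold. Scripts used Python 3.11.15, numpy 2.4.6, pandas 2.3.3 and matplotlib 3.10.9, and were tested on simulated data.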

Additional observations from a re-analysis of the deposited data

How the results depend on the processing

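The count of channel subunits at least 1.5-fold apart was 0 in each direction of each comparison under quantile normalization, median centring, the floor of 9.25, the offset of 50 and the mean of all probe sets. The floor of 9.25 kept 10 genes and the mean of all probe sets kept 16. Averaging took Cacna1c, Cacna1d and Cacna1h below the floor, so their averaged differences are not in that count. With no floor it was 3 higher and 1 lower for TBI minus Sham, 4 higher for Hand Acu minus TBI, and 4 higher and 1 lower for Hand Acu minus Sham, all from genes below the floor. With a threshold of 25% it was 1, 2 and 2 in the order of those comparisons, and at 2-fold 0. The share of all genes was not computed for the counts with no floor, so these have no background beside them. The median of the members moved by less than 0.1 in every setting run, but lay so near 0 that its sign turned in some. For TBI minus Sham it was 0.003 with median centring and 0.01 with averaged probe sets, and for Hand Acu minus TBI 0.06 with no floor and 0.002 with the floor of 9.25. For Hand Acu minus Sham it was -0.07 with the floor of 9.25, where 4 of 10 genes were above 0, and 0.11 with averaged probe sets. Signs of single genes were followed only in settings that kept the gene, so Cacna1c, Cacna1d and Cacna1h were not read as averages. In each comparison the further probe sets of Cacna1c and Cacna1h had the opposite sign to the one used, and those of Cacna1d the same sign. Of the 19 genes, the sign turned in at least 1 setting that kept the gene for 3 in TBI minus Sham (Scn2b, Cacna1b and Cacnb2). It turned for 5 in Hand Acu minus TBI (Scn3b, Cacna1b, Cacnb2, Cacnb3 and Cacng2) and for 1 in Hand Acu minus Sham (Cacnb2). The cause was not tested. Of 16 further probe sets of the members, 8, 9 and 8 had the sign of the one used in the order of the comparisons, and of the 5 above the floor 4, 2 and 3. No paired analysis was possible because each group is 1 array, and for the same reason no array could be left out. Signal near background limits the 17 genes below the floor.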

Other observations

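The genes set aside by name had these log2 signals. Scnm1, a splicing factor gene, had 7.78 in Hand Acu, 7.85 in TBI and 7.73 in Sham. The epithelial channel genes were below the floor: Scnn1a had 4.95, 4.28 and 5.17 on the Hand Acu, TBI and Sham arrays, Scnn1b had 6.59, 6.32 and 5.81, and Scnn1g had 5.96, 5.93 and 5.14.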
